A study of Mus musculus with 14 samples.

Results

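The granzymes and cytotoxic granule genes described here are 10 genes taken by symbol from the 32285 genes counted: Gzma, Gzmb, Gzmk, Gzmm, Gzmc, Prf1, Nkg7, Fasl, Serpinb9 and Serpinb6b. White nodules from 7 Eif3e fl/fl Cγ1Cre mice (cKO), aged 9 to 16 months, were each profiled by scRNA-seq, and V(D)J sequencing read the B cell receptor (BCR) of mice 27, 29, 31, 33 and 34 or the receptor of T cells (TCR) of mice 30 and 32. Eif3e encodes part of eIF3, a factor that starts translation, and the Cre is driven from the γ1 constant region segment of activated B cells. The paper reports that the B and CD4 T cells of cKO tumors lacked YFP, its reporter of Cre activity, and had normal eIF3e protein levels. Deletion was not measured in the data described here. The nodules came from liver at 12 months (mouse 27), lung at 12 months (29), spleen at 13 months (31), thymus at 16 months (33), lung and thymus at 9 months (34), liver at 14 months (30) and spleen at 12 months (32). The nodule of mouse 27 was grown in a Rag2-/- recipient, a host that makes no mature T or B cells of its own but keeps NK cells, and the other 6 were primary. With 1 nodule per mouse, site, age and mouse cannot be told apart, and no healthy tissue or Cre-negative nodule was analysed here.

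Cytotoxic lymphocytes kill by releasing granules against a target cell. Perforin, the product of Prf1, opens the membrane of the target, and granzymes, a family of serine proteases, enter and cleave proteins there; granzyme B, encoded by Gzmb, activates caspases, granzyme A, encoded by Gzma, acts without them, and granzyme K, encoded by Gzmk, is typical of memory-like CD8 T cells. Nkg7 encodes a granule membrane protein needed for granule release, Fasl the ligand of the death receptor Fas, and Serpinb9 an inhibitor of granzyme B that protects the killer cell itself, while Serpinb6b is a related serpin, Gzmm is known best from NK cells and Gzmc belongs to the gene cluster of Gzmb.

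Cells were placed in classes with none of the 10 genes. Of 77442 deposited cells 75503 were kept, with 19254544 to 122550206 unique molecular identifiers (UMIs, 1 counted molecule each) in the kept cells of a library and a median of 1364 to 5319 per cell, and each pair of libraries shared 78 to 278 cell barcodes. CD8 T cells were cells of T-like clusters with a UMI of Cd3d, Cd3e or Cd3g and of Cd8a or Cd8b1 and none of Cd4, and CD4 T cells had a UMI of Cd4 and none of Cd8a or Cd8b1, each outside the largest clone. In mice 30 and 32 CD4 T cells also had to have a sequenced TCR, to keep out clone cells without one, whereas CD8 T cells did not. The 2332 CD8 T cells numbered 120, 239, 86, 1225, 328, 70 and 264 in mice 27, 29, 31, 33, 34, 30 and 32, and the CD4 T cells 124, 341, 147, 778, 171, 117 and 53. The dominant TCR clones of mice 30 and 32 (T clone) held 2091 and 4554 cells, of which 668 and 2330 had a Cd4 UMI and 4 and 23 a Cd8b1 UMI. In the T-like clusters 61.8% of 28245 cells met no gate, and 173 of the 28245 had UMIs of both co-receptors. Levels are given as CPM, the UMIs of a gene per 1000000 UMIs of all genes in the cells of a class and mouse, so each mouse gives 1 value, and ± is the SD over mice.

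The 10 genes lie on 5 chromosomes, and 3 pairs are neighbours (RefSeq, build GRCm38.p6). Gzma, on chromosome 13 from 113093824 to 113100981, is separated from Gzmk by 70.7 kb with no protein-coding gene between them. Gzmb, on chromosome 14 from 56258836 to 56262334, lies 17.2 kb from Gzmc, and Serpinb9 lies 18.0 kb from Serpinb6b. RefSeq promoters, the 250 bases before and 50 after the start, were found for all 10 genes. They are shown for the granzymes whose levels are compared most closely below and for Prf1 and Nkg7, which differed between CD8 and CD4 T cells, each 5′ to 3′ on the strand of its gene. Capitals mark the letters ACCACA or TGTGGT (the core that Runx factors bind), AGGTGTGA (T-box, searched with TCACACCT), TGANTCA (AP-1) and TTCNNNGAA (STAT), each searched on both strands.
Gzma, chr13:113100932-113101231, minus strand: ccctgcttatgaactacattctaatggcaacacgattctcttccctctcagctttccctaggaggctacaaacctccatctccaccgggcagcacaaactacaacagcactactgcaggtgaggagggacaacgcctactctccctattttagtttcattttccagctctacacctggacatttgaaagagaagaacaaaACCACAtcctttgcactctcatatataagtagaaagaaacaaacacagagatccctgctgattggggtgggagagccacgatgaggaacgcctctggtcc
Gzmk, chr13:113180916-113181215, minus strand: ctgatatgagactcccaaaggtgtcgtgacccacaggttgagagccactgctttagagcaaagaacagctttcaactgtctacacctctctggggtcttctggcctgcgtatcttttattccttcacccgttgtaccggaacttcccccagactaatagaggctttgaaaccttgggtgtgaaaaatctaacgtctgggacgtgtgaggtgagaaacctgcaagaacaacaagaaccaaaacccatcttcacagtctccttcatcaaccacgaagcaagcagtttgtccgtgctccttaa
Gzmb, chr14:56262285-56262584, minus strand: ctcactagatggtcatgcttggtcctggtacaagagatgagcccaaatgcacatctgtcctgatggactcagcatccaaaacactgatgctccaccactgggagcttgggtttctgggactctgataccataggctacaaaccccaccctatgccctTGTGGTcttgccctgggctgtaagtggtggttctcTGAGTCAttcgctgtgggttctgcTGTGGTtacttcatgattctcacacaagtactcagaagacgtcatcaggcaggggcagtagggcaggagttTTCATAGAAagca
Prf1, chr10:61297586-61297885, plus strand: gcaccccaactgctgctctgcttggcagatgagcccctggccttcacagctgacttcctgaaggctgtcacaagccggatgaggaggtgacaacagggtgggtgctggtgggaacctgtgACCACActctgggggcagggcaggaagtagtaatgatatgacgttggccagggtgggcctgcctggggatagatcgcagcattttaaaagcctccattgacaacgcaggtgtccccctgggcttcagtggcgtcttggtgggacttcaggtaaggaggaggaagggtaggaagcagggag
Nkg7, chr7:43436888-43437187, plus strand: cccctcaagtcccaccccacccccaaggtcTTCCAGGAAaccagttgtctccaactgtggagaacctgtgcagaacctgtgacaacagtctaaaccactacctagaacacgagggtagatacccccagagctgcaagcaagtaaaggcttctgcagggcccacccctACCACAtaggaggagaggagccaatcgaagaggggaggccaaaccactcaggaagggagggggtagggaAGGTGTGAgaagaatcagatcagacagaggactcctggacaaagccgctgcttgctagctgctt
The Runx core stood in the promoters of 7 of the 10 genes, Gzma, Gzmb, Gzmm, Gzmc, Prf1, Nkg7 and Serpinb9, and in 16.8% of all 32851 promoters. The T-box letters stood in 1 of the 10, Nkg7, and in 1.27% of all, the AP-1 letters in 1, Gzmb, and in 7.81%, and the STAT letters in 3, Gzmb, Gzmm and Nkg7, and in 8.30%. Fasl, which also differed between CD8 and CD4 T cells but is not printed above, had none of these letters in its promoter. The 2 printed granzyme promoters on chromosome 13 differed in that the Runx core stood 50 bases before the start of Gzma and was not among the letters of the Gzmk window. These matches describe letters and not binding.

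Among Gzma, Gzmb and Gzmk, it was Gzma that set the CD8 T cells of the nodules furthest apart. In CD8 T cells its level was 326, 44.9, 779.5, 151 and 54.3 CPM in BCR mice 27, 29, 31, 33 and 34, and 577 and 3193 CPM in TCR mice 30 and 32. Mouse 32 stood above all others, mice 29 and 34 lay lowest, and the value of mouse 30 rested on 1 cell, which held 72 of its 93 UMIs and without which the level was 138 CPM. In mouse 31, too, 1 cell held 64 of 176 UMIs. In CD4 T cells the same mice gave 64.8, 13.7, 3.16, 32.5, 16.4, 36.5 and 315 CPM, so that mouse 32 was highest there too and every mouse was lower than in its own CD8 T cells. The CD4 value of mouse 31 was 1 UMI, under the 9.49 CPM that 3 counts would give. Single CD4 T cells held 17 of 29 UMIs in mouse 27 and 9 of 13 in mouse 34.

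Gzmb and Gzmk were spread more evenly over the CD8 T cells of the 7 nodules. Gzmb gave 378, 335, 576, 1433, 460.1, 428 and 1617 CPM in mice 27, 29, 31, 33, 34, 30 and 32, with mice 33 and 32 apart from the remaining 5. In CD4 T cells it gave 480.3, 2.74, 136, 829.8, 491.5, 51.0 and 195.5 CPM, and mice 27 and 34 were higher there than in CD8 T cells, although in mouse 34 a single CD4 T cell held 191 of 390 UMIs, without which the level was 252 CPM. The CD4 value of mouse 29 came from 2 UMIs, under the 4.11 CPM that 3 counts would give. Gzmk gave 447, 467, 567, 804, 937, 466 and 325 CPM in CD8 T cells, where mouse 32, the highest for Gzma and Gzmb, was the lowest. In CD4 T cells Gzmk gave 583, 83.5, 512, 811, 435, 1171 and 92.3 CPM, and the ranges of CD8 and CD4 T cells overlapped over most of their length.

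**Figure D1:**
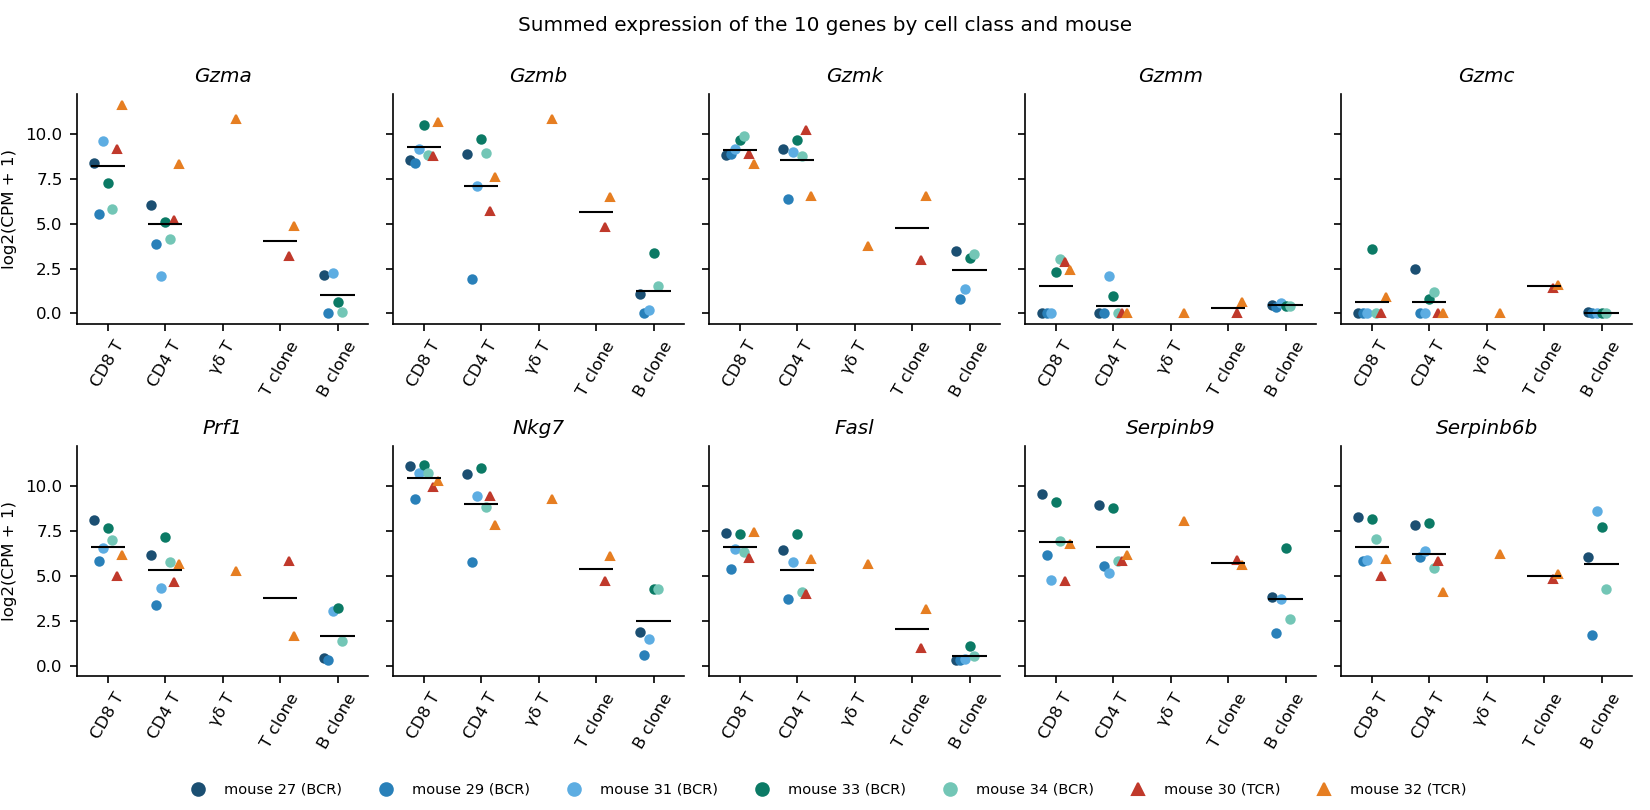
Summed expression of the 10 genes, as log2(CPM + 1), in CD8 T, CD4 T, γδ T, T clone and B clone cells, 1 point per mouse with at least 20 cells of the class, circles for BCR mice and triangles for TCR mice, and a black line for the mean where there is more than 1 mouse. Gzma, Nkg7, Prf1 and Fasl were highest in T cell classes, whereas Serpinb6b in the B clone of mouse 31 (393 CPM) lay above its CD8 and CD4 T cell levels in all 7 mice.

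Among the other granule genes, Nkg7 was at 2247, 614, 1701, 2364, 1696, 993 and 1248 CPM in the CD8 T cells of mice 27, 29, 31, 33, 34, 30 and 32 and at 1647, 53.4, 693, 2078, 449, 707 and 228 CPM in their CD4 T cells. Prf1 was at 271, 56.6, 93.0, 206, 127, 31.03 and 70.2 CPM in CD8 T cells and at 71.5, 9.58, 19.0, 144, 54.2, 24.3 and 48.9 CPM in CD4 T cells. Both genes were higher in the CD8 T cells of all 7 mice, and mouse 29 had the lowest CD4 values of both. Fasl was at 165, 40.1, 88.6, 162, 78.0, 62.1 and 175 CPM in CD8 T cells and at 87.1, 12.3, 53.8, 161, 16.4, 14.6 and 59.7 CPM in CD4 T cells, with mouse 33 nearly level between the classes.

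The question of which of these genes mark CD8 rather than CD4 T cells of the same nodule was tested with edgeR's quasi-likelihood test on summed UMIs of 7 against 7 mice with mouse as a block. Of 8 members with enough counts 4 were higher in CD8 T cells and none was lower, where 4.09% of all 5529 genes tested passed in either direction and 1.52% were higher. Gzma had a log2 fold change of 3.05 ± 0.35 (SE), or 8.26-fold, at an edgeR adjusted p of 9.6e-05 and with 7 of 7 mice higher. Nkg7 rose by 1.42 ± 0.30 (edgeR adjusted p = 0.0123), Prf1 by 1.25 ± 0.22 (0.00344) and Fasl by 1.04 ± 0.24 (0.0192) on the log2 scale, each in 7 of 7 mice. Gzmb, at 1.65 ± 0.47, did not pass (edgeR adjusted p = 0.0616, 5 of 7 mice higher), and neither did Gzmk at 0.52 ± 0.32 (0.539, 4 of 7), Serpinb9 at 0.55 ± 0.17 (0.0884, 5 of 7) or Serpinb6b at 0.49 ± 0.22 (0.287, 4 of 7). The median over the 8 was 1.15 against 0.00 over all genes, and 2.57% of all genes were lower. Summed NK cell markers (8 genes) were at 236 to 509 CPM in CD8 and 41.1 to 355 CPM in CD4 T cells. Of these 8 genes, Eomes, a transcription factor that is also listed below, alone gave 171 to 474 and 35.6 to 330 CPM. Ncr1 was found in 8 of all 75503 cells. Macrophage or monocyte markers (8 genes) were at 49.6 to 704 and 49.1 to 367 CPM. The part of other cell types in these differences was not tested. Without mouse 32 only Gzma and Prf1 passed (2 members), and in the 5 BCR mice alone the same pair passed, with 5 members passing where CD8 T cells, like CD4 T cells, needed a TCR in mice 30 and 32, and when 2 UMIs of the gating genes were required Gzma alone passed.

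**Figure D2:**
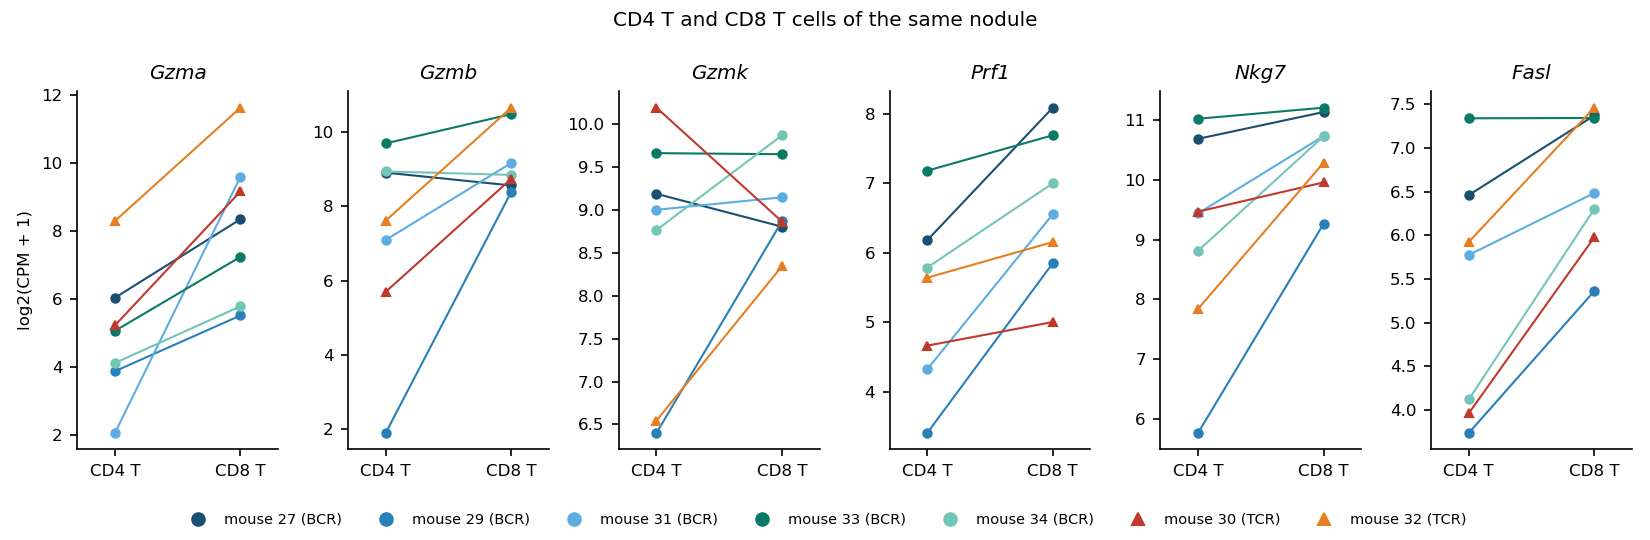
Levels of 6 genes in the CD4 T and CD8 T cells of each nodule, as log2(CPM + 1) on an axis of its own for each gene, with a line joining the classes of a mouse. Gzma, Prf1, Nkg7 and Fasl were higher in CD8 T cells in 7 of 7 mice, Gzmb in 5 and Gzmk in 4.

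The 3 main granzymes were also compared by how far each differed between the classes. On the log2(CPM + 10) scale the CD8 minus CD4 difference of Gzma exceeded that of Gzmk by 2.27 ± 2.45 (SD, n = 7) with 6 of 7 mice in that direction, and the exact two-sided sign-flip permutation test over mice gave p = 0.0469, or 0.117 after Benjamini-Hochberg adjustment over 3 tests. Gzmb exceeded Gzmk by 1.34 ± 1.72 (exact permutation p = 0.0781, adjusted 0.117) and Gzma exceeded Gzmb by 0.93 ± 2.31 (exact permutation p = 0.297), the smallest p that 7 mice allow being 0.0156. These 3 tests were chosen after the levels had been seen, and none passed once adjusted.

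The serpins, which did not pass between the classes, were highest in the same nodules. Serpinb9 was at 752.5, 70.8, 26.6, 556, 122, 24.8 and 109 CPM in the CD8 T cells of mice 27, 29, 31, 33, 34, 30 and 32, and at 485, 46.5, 34.8, 447, 56.7, 55.9 and 70.6 CPM in their CD4 T cells. Serpinb6b was at 316, 56.6, 57.6, 284, 131, 31.03 and 60.5 CPM in CD8 T cells and at 228, 65.7, 82.3, 244, 42.9, 55.9 and 16.3 CPM in CD4 T cells. Mice 27 and 33 were highest for both genes in both classes, and over 17 class and mouse sums of T cells the log2(CPM + 1) values of the serpins had a Pearson r of 0.819, a description over points that share libraries. Nkg7 and Fasl had the highest r of any pair of the 10 genes, 0.893, whereas for the neighbours Gzma and Gzmk it was -0.0168.

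Gzmm and Gzmc were nearly absent from T cells. Gzmm gave 48 UMIs in all CD8 T cells, none of them in mice 27, 29 and 31, where the limit set by 3 counts was 10.3, 7.08 and 13.3 CPM. In mice 33, 34 and 32 Gzmm lay between 3.86 and 7.09 CPM, from 30, 12 and 5 UMIs. Mouse 30 had 1 UMI, under its limit of 18.6 CPM. Gzmc gave 87 UMIs, of which 86 were in mouse 33, and there 1 cell held 73. Both genes were too low to be tested between classes. In mouse 33 Gzmm gave 30 UMIs in CD8 T cells (3.86 CPM, exact Poisson 95% interval 2.61 to 5.52) and 4 in CD4 T cells (0.963 CPM, 0.262 to 2.46), and Gzmc without its richest CD8 T cell was at 1.68 CPM, against 0.722 CPM in CD4 T cells. How reads shared between the similar sequences of Gzmb and Gzmc, or of the serpins, were assigned is not given in the sources used here, so low counts of Gzmc are uncertain.

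At the level of cells, the share of CD8 T cells with a Gzma UMI set mouse 32 apart from the other 6 nodules. To allow for depth each cell was thinned to 1000 UMIs, and shallower cells (3 to 39 per mouse among CD8 T cells) were left out. Then 49.0% of the CD8 T cells of mouse 32 (exact binomial 95% interval 42.8 to 55.3) had a Gzma UMI against 3.12% to 16.2% in the other 6. Gzmb was found in 15.9% to 53.7% of the thinned CD8 T cells and Gzmk in 26.1% to 53.9%. The mean over 7 mice was 12.5% for Gzma, 29.4% for Gzmb, 40.2% for Gzmk and 64.4% for Nkg7, and without thinning 17.1%, 42.0%, 61.7% and 80.7%. In thinned CD4 T cells the means were 3.27%, 11.6%, 27.2% and 33.8%. Macrophages and monocytes, a class that should lack these genes, had a UMI in at most 1.29%, 2.20%, 3.38% and 6.59% of thinned cells in any mouse, in the same order, with medians of 2267 to 9118 UMIs per cell against 1486 to 4775 for CD8 T cells. The Gzma shares of CD4 T cells in mice 29, 31 and 34 (0.671%, 0.709% and 1.19%) lay under that background, as did the Nkg7 share in mouse 29 (4.36%), and are not read as expression. Intervals and limits here cover counting error only.

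The UMIs of Gzma were concentrated where few cells held them. In mouse 33 the richest 10% of the CD8 T cells (123 of 1225) held 94.8% of the Gzma UMIs but 49.96% of those of Gzmb, 35.7% of those of Gzmk and 27.6% of those of Nkg7. In mouse 32, where 162 of 264 CD8 T cells had a Gzma UMI, the richest 10% held 55.5%. Leaving the richest cell of each gene out of every sum, an alternative chosen after seeing the data, gave a Gzma difference between CD8 and CD4 T cells of 3.19 on the log2 scale and took Gzmb past the threshold (1.89, edgeR adjusted p = 0.0276).

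The granzymes were combined differently in the nodules. Among thinned CD8 T cells Gzmk alone was the commonest combination in 5 of 7 mice (27, 29, 31, 34 and 30), at 18.8% to 36.8% of cells. Mouse 33 differed in having Gzmb with Gzmk most often (26.1% of 1217 cells), and mouse 32 in having Gzma with Gzmb most often (23.8% of 261 cells). In CD4 T cells Gzmk alone was commonest in 6 of 7 mice, and in mouse 29 only 5.37% of 298 CD4 T cells had any of the 3 granzymes. A Gzmb UMI was more frequent in CD8 T cells with than without a Gzma UMI in 7 of 7 mice, at 64.8% of 128 cells against 36.1% in mouse 32 and 66.2% of 77 cells against 52.8% in mouse 33, but the other 5 mice had only 3 to 13 cells with a Gzma UMI. It was more frequent with than without a Gzmk UMI in 6 of 7, with mouse 30 the exception (8.33% against 20.5%). Cells of 1 mouse are not replicates, and cells that gave more of their UMIs to these genes raise both shares, so no test was made.

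**Figure D3:**
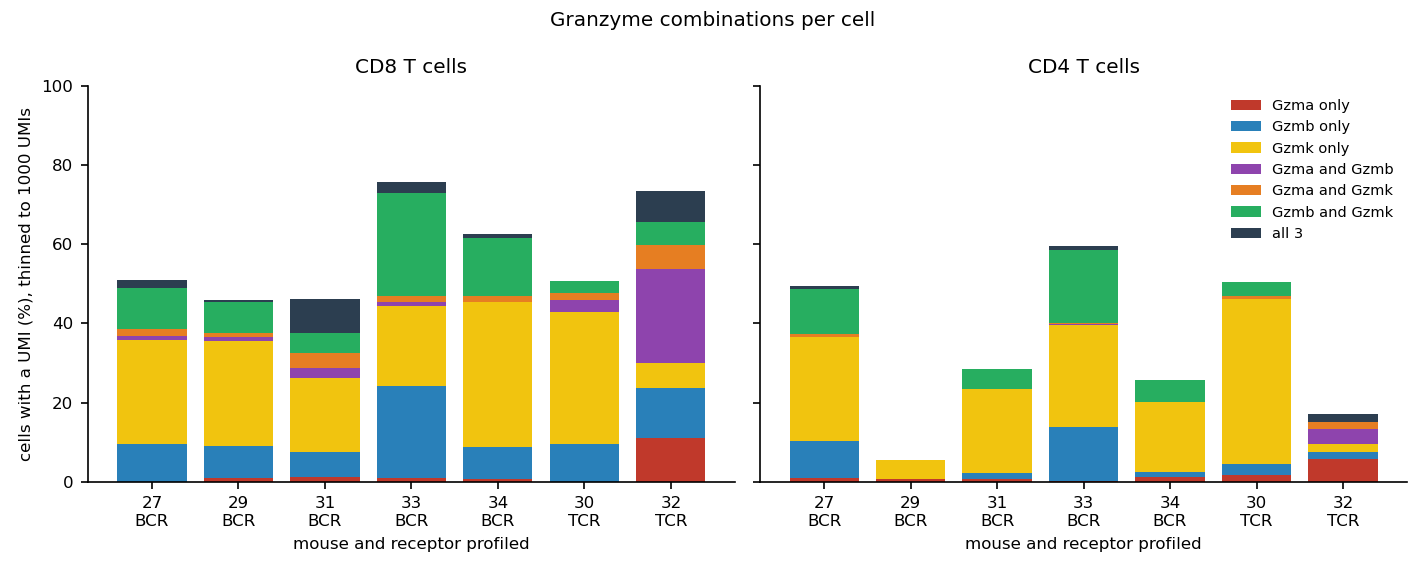
Share of CD8 T cells (left) and CD4 T cells (right) with a UMI of Gzma, Gzmb or Gzmk in each combination, after thinning every cell to 1000 UMIs, by mouse. Gzmk alone was the commonest combination in the CD8 T cells of 5 of 7 mice, Gzmb with Gzmk in mouse 33 and Gzma with Gzmb in mouse 32.

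Gzma, Nkg7 and Fasl were lower in the dominant T clones than in the remaining CD4 T cells of the same nodules. In mice 30 and 32 Gzma was at 8.08 and 27.8 CPM in the clone and at 36.5 and 315 CPM in CD4 T cells outside it. Nkg7 was at 25.2 and 67.7 CPM against 707 and 228, and Fasl at 0.939 and 7.80 CPM against 14.6 and 59.7. For these 3 genes both clones lay below both CD4 T samples, but how many of all genes did so was not counted, so no result is read from that separation. Gzmk was at 6.76 and 92.2 CPM against 1171 and 92.3, so that its values were nearly equal in mouse 32. After thinning to 1000 UMIs 0.755% and 2.23% of clone cells had a Gzma UMI, 1.61% and 5.71% an Nkg7 UMI and 0.453% and 6.99% a Gzmk UMI, and the Gzma and Gzmk shares of mouse 30 and the Nkg7 shares of both mice lay under the highest macrophage share given above. For Nkg7 that highest share came from mouse 34, where Cd3e was found in 11.4% of the 105 macrophages or monocytes. The Nkg7 share of the clone of mouse 32 lay above that of the macrophages of mouse 32 itself, given below.

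In edgeR's test of 2 against 2 samples with mouse as a block 3 of 8 members were lower in the clone, where 1.07% of 10964 genes passed in either direction, 0.666% lower and 0.401% higher. Gzma fell by 2.98 ± 0.47 on the log2 scale (edgeR adjusted p = 0.00124), Nkg7 fell by 3.38 ± 0.61 (0.00463) and Fasl fell by 3.35 ± 0.77 (0.0339), each in 2 of 2 mice. Gzmk, at -3.90 ± 1.37 (edgeR adjusted p = 0.31), and Gzmb, at -1.10 ± 0.41 (0.377), did not pass. With gates applied without clusters Gzma alone passed, and with 2 mice the test rests on a spread borrowed across genes.

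Prf1 and the serpins did not follow the other members in the clones. Prf1 reached 56.6 CPM in mouse 30, from 301 UMIs in 155 of 2091 cells, and 2.13 CPM in mouse 32, from 44 UMIs in 40 of 4554 cells, against 24.3 and 48.9 CPM in CD4 T cells. The 2 mice thus differed in opposite directions (log2 fold change -1.31 ± 0.93, edgeR adjusted p = 0.976). Serpinb9 was at 57.5 and 47.5 CPM in the clones against 55.9 and 70.6, and Serpinb6b at 27.8 and 33.3 CPM against 55.9 and 16.3. Markers of other cell types in the clones, in summed CPM over the list, were 8.27 to 60.8 for 7 of 7 B cell genes and 12.2 to 41.1 for 8 of 8 macrophage or monocyte genes, against 4.86 to 118 and 49.1 to 367 in CD4 T cells of the 7 mice. NK cell markers, 4 of 8 with UMIs in the clones, were at 3.88 to 34.2 against 41.1 to 355, mast cell or basophil markers (6 of 6) at 17.8 to 80.2 against 0 to 27.2 and neutrophil markers (6 of 6) at 162 to 165 against 0 to 213, and their part in these differences was not tested. Of the NK cell markers, Eomes was at 0.921 to 2.44 CPM in the clones and 35.6 to 330 CPM in CD4 T cells.

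Set against the CD4 T cells of the 5 BCR mice, the clones gave no member past the threshold in edgeR (0.138% of 8684 genes passed, 0.0345% higher, and 4 of 8 members had an unadjusted p under 0.05, as had 8.49% of all genes), while DESeq2 called 193 genes, among them 3 members, Fasl, Nkg7 and Gzmk. Nkg7 was at 46.5 ± 30.1 CPM (SD, n = 2) in the clones and 984 ± 848 CPM (n = 5) in those CD4 T cells, a log2 fold change of -4.42 ± 1.35 (edgeR adjusted p = 0.366). Fasl was at 4.37 ± 4.85 against 66.2 ± 61.2 CPM, and Serpinb6b at 30.5 ± 3.85 against 132 ± 95.6 CPM, and for both genes no clone value reached the lowest BCR mouse. How many of all genes were separated in this way was not counted, so no result is read from it.

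**Figure D4:**
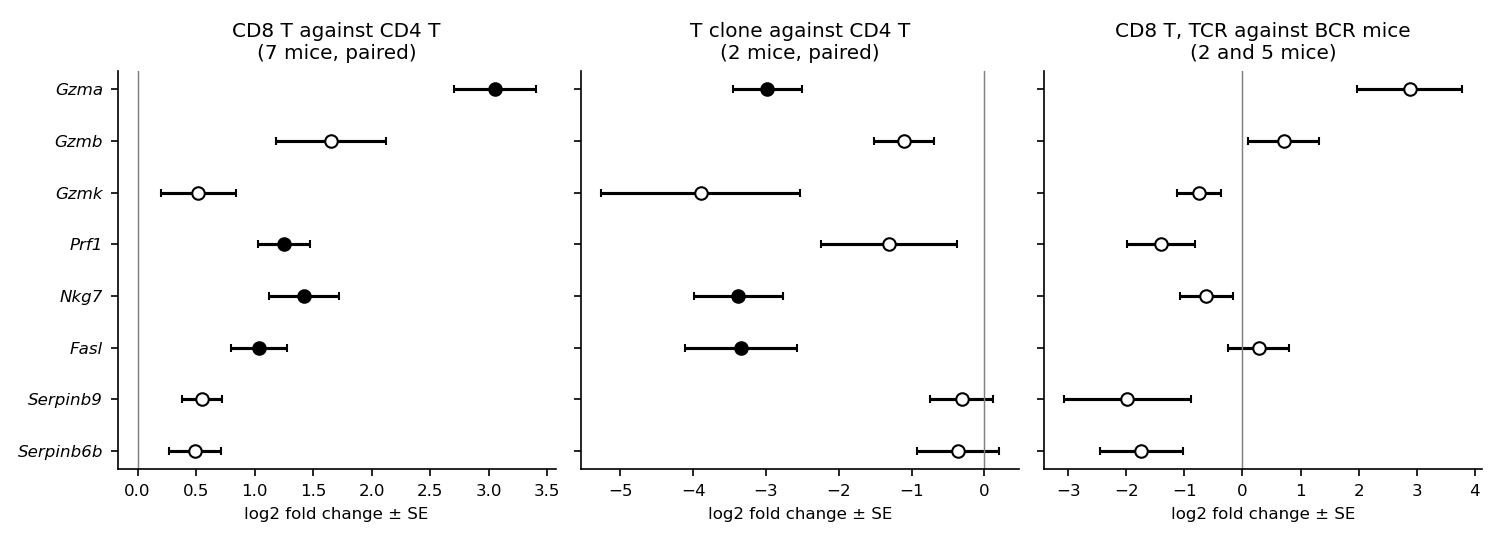
Log2 fold change with its SE for the 8 tested members in CD8 T against CD4 T cells (7 mice), T clone against non-clonal CD4 T cells (2 mice) and CD8 T cells of 2 TCR against 5 BCR mice, from edgeR, with filled points for members past an adjusted p of 0.05. Gzma, Nkg7 and Fasl were called higher in CD8 T cells and lower in the clone, Prf1 was called in CD8 T cells, and no member was called between TCR and BCR mice.

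Smaller clonotypes outside the dominant clone were examined in the 2 TCR mice, as values without a test. In mouse 32, CD8 T cells of clonotypes seen more than once (60 cells of 16 clonotypes, median 4290 UMIs) had Gzma at 6802 CPM (exact Poisson 95% interval 6494 to 7121), and those of clonotypes seen once (83 cells, median 4008 UMIs) had it at 2481 CPM (2325 to 2645). Gzmb followed the same order at 2375 against 1530 CPM and Fasl at 272 against 153, whereas Gzmk ran the other way at 253 against 429 CPM, as did Serpinb9 at 81.9 against 163. The intervals cover counting error only and leave out the spread over cells and over clonotypes, all from 1 mouse. In mouse 30 the expanded CD8 T cells were 9, with no Gzma UMI, where 3 counts would be 140 CPM. The 14 seen once had 72 Gzma UMIs, all in 1 cell. In CD4 T cells of mouse 30 Gzmk was at 1161 CPM in 69 cells of expanded clonotypes and at 1186 CPM in 48 cells seen once.

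Between TCR and BCR mice the CD8 T cells gave no called gene at all in edgeR (0 of 6405, 0%, with 452 at an unadjusted p under 0.05), and DESeq2 called 11 genes, none of them a member. Gzma had means of 1885 ± 1850 CPM (SD, n = 2) and 271 ± 306 CPM (n = 5), a log2 fold change of 2.88 ± 0.90 (edgeR adjusted p = 0.698), which was 1.02 without mouse 32. Gzmk was at 395 ± 99.6 against 644 ± 216 CPM (-0.74 ± 0.38, edgeR adjusted p = 0.705) and Serpinb6b at 45.8 ± 20.9 against 169 ± 124 CPM (-1.74 ± 0.71, 0.698). The ranges of the groups overlapped for all 10 genes.

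Within CD8 T cells, cycling cells (at least 2 UMIs of 10 proliferation genes) were compared with the rest in the 3 nodules with 20 or more of each. Fasl was at 130, 66.6 and 113 CPM in cycling cells of mice 33, 34 and 32 and at 199.5, 88.8 and 191 CPM in the others. It fell by 0.65 ± 0.17 on the log2 scale (edgeR adjusted p = 0.0305, lower in 3 of 3 mice), the 1 of 8 members called, where 12.9% of 7485 genes passed, 5.09% lower and 7.79% higher. A count of 1 in 8 is near that share of all genes, so nothing about the members as a group is read from it. Nkg7 was at 2104, 1349 and 1206 CPM against 2672, 2027 and 1258 (-0.39 ± 0.14, edgeR adjusted p = 0.0777), and Serpinb6b had a log2 fold change of 0.58 ± 0.28 (0.187). Without mouse 32 the count was 5, and without mouse 33 or mouse 34 it was 0. Over all genes 157 to 2413 were called when each mouse was left out, against 964 with none left out. The class is a range of a summed count and depends on the depth of a cell.

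Detection of Pdcd1, which encodes the inhibitory receptor PD-1, divided CD8 T cells in 6 nodules without a called member in edgeR (0.883% of 4644 genes passed, and 5 of 8 members had an unadjusted p under 0.05, as had 11.8% of all genes), and DESeq2 called none either. Log2 fold changes in Pdcd1-detected cells lay from -0.22 ± 0.21 for Gzma (edgeR adjusted p = 0.76) to 0.45 ± 0.14 for Serpinb9 (0.15, higher in 6 of 6 mice). Nkg7 was also higher in 6 of 6 mice (0.26 ± 0.10, edgeR adjusted p = 0.249).

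NK cells could not be described. The gate for NK receptor genes without CD3 gave 49 cells in 7 mice, 1 to 19 per mouse, and only 4 of them had a UMI of Ncr1, the defining NK receptor, which was found in 8 of all 75503 cells, while 31 had a UMI of Klri2. The name is thus not borne out by the markers, and no nodule had 20 such cells. In mouse 27 its 2 cells held 27 Gzma and 10 Gzmb UMIs, and in mouse 29 its 6 cells held 14 and 5, whereas in mouse 31 the 3 cells held none. γδ T cells, with a Trdc UMI, reached 20 cells in mouse 32 alone. Those 23 cells had Gzma at 1832 CPM and Gzmb at 1795 CPM, of which 1 cell held 92 of 147 and 71 of 144 UMIs, and a single Gzmk UMI.

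Outside T cells the members divided. Of all UMIs of each gene in the 7 nodules, 12.1% lay outside the T-like clusters for Gzma, 8.97% for Gzmk and 8.82% for Fasl, against 40.7% for Serpinb9 and 85.3% for Serpinb6b. Between them were Nkg7 (14.8%), Gzmb (18.5%) and Prf1 (21.4%), as well as the sparse Gzmm (62.3%) and Gzmc (65.3%). Single nodules departed from these shares, with 55.4% for Gzma and 88.5% for Prf1 in mouse 31 and 39.1% for Gzma in mouse 27. In the dominant B cell clones of mice 27, 29, 31, 33 and 34 Serpinb6b was at 65.9, 2.31, 393, 212 and 18.6 CPM and Serpinb9 at 13.4, 2.56, 12.0, 93.7 and 4.94 CPM. Gzmb in those clones was at 1.10, 0, 0.144, 9.25 and 1.90 CPM, which was a small part of its level in the CD8 T cells of any mouse. Endothelial cells had Serpinb6b at 713 CPM and Serpinb9 at 519 CPM in mouse 31 (45 cells), and at 88.5 and 72.03 CPM in mouse 29 (480 cells).

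Nkg7 UMIs were also counted in myeloid cells. In neutrophils its level was 154 CPM in mouse 32 (1077 cells), 77.9 CPM in mouse 30 (765 cells) and 6.55 CPM in mouse 29 (2146 cells). In macrophages or monocytes it was at 99.8 CPM in mouse 34 (105 cells) and 56.1 CPM in mouse 33 (935 cells), and at 0.349 to 26.8 CPM in the other 5 mice. After thinning 6.21% of 1047 neutrophils of mouse 32 had an Nkg7 UMI. This share was under the 6.59% of the macrophages of mouse 34 but above the 1.94% of those of mouse 32 itself. It is not read as expression. Cd3e was found in 11.4% of the 105 macrophages or monocytes of mouse 34, and the part of T cell RNA in their Nkg7 share was not tested. Cells with UMIs of at least 3 of 6 mast cell or basophil genes, a gate added after seeing the data, numbered 310 in mouse 32 and 24 in mouse 30. They had Gzmb at 346 and 576 CPM and held 30.3% and 7.19% of the Gzmb UMIs of their nodules. The UMIs lay in few cells, since in mouse 32 the richest 31 cells held 88.2% of 2762 UMIs and in mouse 30, 1 cell held 34 of 46. After thinning 13.0% of 307 such cells of mouse 32 had a Gzmb UMI (exact binomial 95% interval 9.47 to 17.3) and 1.80% of 3390 erythroid cells did. Nkg7 was found in 188 of the 310 cells of mouse 32 before thinning, at 131 CPM. The gate held 11.7% of the Nkg7 UMIs of that nodule, and 56.1% lay outside the T-like clusters. Gata2 was found in 95.2%, Mcpt8 in 19.7%, Cd3e in 3.23% and the erythroid gene Car1 in 84.2% of the 310, with a median of 24753 UMIs, so that the gate holds more than mature mast cells or basophils.

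**Figure D5:**
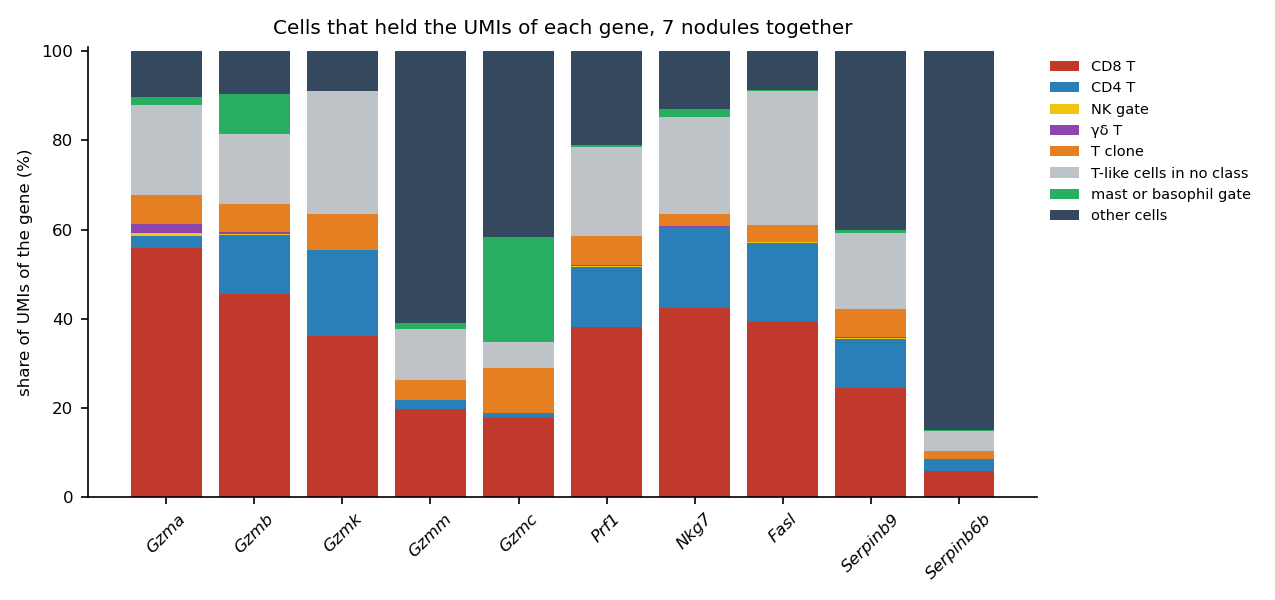
Share of the UMIs of each gene, over the 7 nodules together, held by CD8 T cells, CD4 T cells, NK-gate cells, γδ T cells, T clone cells, T-like cells in no class, the mast or basophil gate and all other cells. CD8 T cells held 55.9% for Gzma and 5.69% for Serpinb6b, and the mast or basophil gate held 9.01% for Gzmb.

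Per nodule, with all cells summed, Gzmb was at 12.2, 7.83, 3.15, 260, 36.3, 33.2 and 74.3 CPM and Nkg7 at 53.7, 16.2, 16.97, 519, 107, 81.4 and 72.8 CPM in mice 27, 29, 31, 33, 34, 30 and 32. The thymus nodule of mouse 33, which had the most CD8 T cells, was highest for both. In such sums fewer cells of a type and less RNA per cell cannot be told apart. Serpinb6b was at 67.3, 24.1, 357, 169, 18.4, 24.9 and 16.2 CPM, highest in the spleen nodule of mouse 31.

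Other genes, in a pair of lists, were followed beside the 10. Of 19 other granule and effector genes 12 were tested between CD8 and CD4 T cells, and 3 were higher, where 1.52% of all genes were: Ctsw, a granule cathepsin (1.04 ± 0.15, edgeR adjusted p = 0.000906), Ccl5, a chemokine of memory T cells (1.23 ± 0.31, 0.0315), and Cst7, an inhibitor of the proteases that mature granzymes (0.45 ± 0.12, 0.0398). Of 9 transcription factors of this programme 4 were higher, Tbx21 (1.58 ± 0.26, edgeR adjusted p = 0.00202), Runx3 (0.94 ± 0.19, 0.00867), Eomes (1.04 ± 0.27, 0.0372) and Id2 (0.55 ± 0.15, 0.0433). In the T clone 1 of 13 and 1 of 9 were lower, against 0.666% of all genes. Ccl5 was at 158 ± 66.8 CPM in the clones and 4108 ± 2215 CPM in CD4 T cells (n = 2 each) and fell by 4.72 ± 0.44 (edgeR adjusted p = 2.5e-06). Eomes was at 1.68 ± 1.08 against 133 ± 111 CPM and fell by 6.24 ± 0.53 (9.4e-07).

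In cycling CD8 T cells 3 of 13 and 4 of 9 were lower, against 5.09% of all genes, namely Ifng, Ccl5 and Ctsw, and Hopx, Bhlhe40, Tbx21 and Id2, and in Pdcd1-detected cells Tcf7 alone was lower, against 0.646% of all genes. The genes whose log2(CPM + 1) over the 17 class and mouse sums ran most like the mean of the 10 members included Selplg (Pearson r 0.897), Ms4a4b (0.874), Setbp1, Gpr18, Rps13, Hopx, Tm6sf1, Rnf138 and Ccl5 (0.845), out of 8203 genes, over points that share libraries and depth.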

How the data were processed

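The authors deposited raw UMI counts per gene and cell (counts, not normalized) and contig tables with clonotype numbers from SeekSoulTools. The build in the submitters' processing notes is GRCm38 (mm10), and the aligner, annotation and counting rule of the RNA files, and whether they read the 5′ or 3′ end, are not given in the sources used here. Members and lists were chosen with earlier results of these data known. Cells with at least 201 UMIs, at least 101 genes and at most 10% mitochondrial UMIs were kept and clustered with scanpy 1.11.5 (Python 3.11.15; 2000 variable genes without the members, 30 components, Leiden resolution 1.0, 34 clusters). Groups follow the receptor named in the label of the V(D)J library of the same nodule. No doublet caller was run, and removal of cells with at least 2 B cell UMIs was an alternative. The T clone is the family of cells sharing the chains of the largest clonotype. UMIs were summed per mouse and class (at least 20 cells) and tested with edgeR 4.0.16 in R 4.3.3 (TMM, filterByExpr, quasi-likelihood, Benjamini-Hochberg over all genes tested, threshold 0.05), with DESeq2 1.42.0 as an alternative. The scripts were tested on simulated data. Mouse was a block because classes of 1 mouse come from the same animal, and the deviations of CD8 and CD4 T cells of the same mouse correlated at 0.379 to 0.731, each highest with its own mouse. All named members are reported, list genes where they passed. Of the 10 genes most like the members, 1 is not reported here. Shares have exact Clopper-Pearson and sums of counts exact Poisson intervals. Other alternatives were no low-count filter, 2 gating UMIs, gates without clusters, at least 50 cells, BCR mice only, the largest clonotype, TCR-called CD8 T cells only, and each mouse left out.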

Additional observations from a re-analysis of the deposited data

Results flagged for a closer look

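Within the 5 BCR mice, 7 of 30 groups of values held a mouse set far from its nearest neighbour (Dixon's ratio). For Gzmc in CD8 T cells and in the B clones only 1 mouse had any UMI, which fixes the ratio. For the other 5, chance alone would set apart about 1 in 20 groups if the values were normally distributed. That was not checked for these CPM values, and groups of 1 mouse share a library, so no excess over chance is read. Mouse 33 stood apart in CD8 T cells for Gzmb, at 1433 CPM with the next mouse at 576, and for Gzmc, at 11.1 CPM, of which 73 of 86 UMIs lay in 1 cell. In the B clones mouse 33 stood apart for Gzmb at 9.25 CPM, Fasl at 1.16 CPM and Serpinb9 at 93.7 CPM. Mouse 27 stood apart for Gzmc in CD4 T cells, at 4.47 CPM from 2 UMIs, and in the B clone, at 0.0550 CPM from 1 UMI. The nodule of mouse 33 had the most Gzmb UMIs and the most CD8 T cells (1225), and the part of free RNA in the B clone values was not tested.

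Signals were also seen in cells outside the comparisons. Gzmb in the mast or basophil gate reached 576 CPM (mouse 30) and 346 CPM (mouse 32), above the 37.6 and 0.376 CPM that 3 counts would give, and Gzmc in that gate was at 14.7 CPM in mouse 32. Of these Gzmc UMIs 82 lay in 1 cell, and of the Gzmb UMIs of mouse 30, 34 of 46.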

How the results depend on the processing

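Of the fold changes of members recomputed under an alternative, 438 kept their direction and their side of the threshold, 33 passed it newly, 24 lost it and 6 reversed. For CD8 against CD4 T cells, 4 members were called, and leaving out each mouse gave 2 to 5. The count was 8 without the low-count filter, 2 in the BCR mice and 1 with 2 gating UMIs. Over all genes 226 were called, 694 without that filter, 106 to 312 when each mouse was left out and 8 to 694 over all alternatives. Mouse was kept as a replicate block. Without the block, 0 members were called against 4, 3 and 1 for CD8 against CD4, T clone and cycling cells, and the Pdcd1 count stayed at 0. For the T clone against CD4 T cells the count was 1 with gates without clusters, and with the richest cells left out Prf1 (0.22) and Serpinb9 (0.14) reversed on the log2 scale. Over all genes 0 to 216 were called there under the alternatives, against 117. Leaving out a mouse there left 1 pair and no residual degree of freedom, so no test was made. Against CD4 T cells of BCR mice the clones gave 3 with DESeq2 and 6 without the filter, where 193 and 864 of all genes were called. Gzma lay from -1.82 to 0.10 when each mouse was left out, 0.10 without mouse 30. Between TCR and BCR mice leaving out each mouse gave -0.90 to 0.75 for Fasl and -0.70 to 1.36 for Gzmb, both reversed without mouse 32. For cycling cells the count was 0 with DESeq2, 3 without the filter, 3 with gates without clusters, 5 with at least 50 cells or BCR mice only, and 0 to 5 when each mouse was left out. For Pdcd1 it was 1 without the filter, with 2 gating UMIs and with B cell UMIs removed, and Gzma lay from -0.64 to 0.05 when each mouse was left out, 0.05 without mouse 33. NK-gate cells against CD8 T cells could be tested only without clusters, where 4 of 8 members and 3.41% of 7147 genes were lower, and there 711 of 971 cells of mouse 31 lay in B cell clusters. The other NK settings and the Foxp3 comparison, with at most 16 Foxp3-detected cells per mouse, were not run. The cause of these changes was not tested. Low counts of Gzmm and Gzmc, 61.8% of T-like cells without a class, and 2 TCR mice limit what could be seen.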

Other observations

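The 17453 T-like cells that met no gate also carried the granule genes, and no comparison above used them. Their Nkg7 level was 1499, 62.7, 463, 1620 and 589 CPM in mice 27, 29, 31, 33 and 34 and 80.6 and 150 CPM in mice 30 and 32, and in every mouse but 29 and 34, where it lay between them, it was under the levels of both CD8 and CD4 T cells. These cells held 64.4% of the Gzmk UMIs of mouse 30, where the dominant T clone held 2.09%, while in mouse 32 the clone held 63.3% of them.

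Few CD4 T cells had a UMI of Foxp3, the transcription factor of regulatory T cells, so no test was made. In mouse 34 the 16 such cells had 59 Gzmb UMIs (720.1 CPM) and no Gzmk UMI, where 3 counts would be 36.6 CPM and the other CD4 T cells had 485 CPM. In mouse 33 the 9 such cells had Gzmb at 185 CPM and Gzmk at 388 CPM, against 838 and 816 CPM.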
